A study of Homo sapiens with 12 samples.

Results

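The 7 genes described here, SNAI1, SNAI2, ZEB1, ZEB2, TWIST1, TWIST2 and PRRX1, encode transcription factors known for driving epithelial cells towards a mesenchymal state. They were chosen by name, as the rows of the count table whose Ensembl identifier carries one of these symbols, and make up 7 of the 62703 genes in the table. The rule uses the symbol alone.

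In an epithelial to mesenchymal transition, cells lose junction proteins such as E-cadherin, gain matrix and cytoskeletal proteins such as fibronectin and vimentin, and become motile. SNAI1 and SNAI2 are zinc finger proteins, and ZEB1 and ZEB2 are zinc finger and homeodomain proteins, and both families bind short E-box sequences in promoters such as that of CDH1 and repress transcription there. TWIST1 and TWIST2 are basic helix-loop-helix factors that bind E-boxes as dimers, and PRRX1 is a paired-related homeodomain factor. TGFβ is a cytokine known to induce several of these factors in epithelial cells, and bile duct epithelium exposed to it is studied as a source of fibrogenic signals in biliary disease.

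The RNA came from H69, an established human line of bile duct epithelium (cholangiocytes) that carries a large T antigen of viral origin to keep it growing, so every group shares that modification and 1 origin. All cells were first starved of serum for 6 h and then kept overnight in medium without serum. The first group received TGFβ at 10 ng/mL together with Aramchol at 30 µM, the second TGFβ alone, the third Aramchol alone, and the fourth vehicle, with 3 libraries in each group. The labels state 1 Aramchol concentration, which is used here for both groups that received it. Aramchol joins a bile acid to a saturated fatty acid and is known as an inhibitor of SCD1, the desaturase that makes monounsaturated fatty acids. Whether libraries of the same group came from independent cultures is not stated, so the p-values speak only for the spread among these libraries, which could be technical.

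Library totals ran from 52279922 to 70339925 counts. Levels are given in CPM, computed from the counts and the library totals scaled by TMM (factors 0.930 to 1.09), and 3 counts, taken as the floor of detection, equalled 0.0410 to 0.0548 CPM. Among cholangiocyte markers, KRT7, KRT8, KRT19, EPCAM and SOX9 were detected, while CFTR, GGT1, SCTR, SPP1 and ONECUT1 stayed under 1 CPM in every library, with CFTR, the chloride channel of bile ducts, at no more than 3 counts. Of 10 markers each, 8 of leukocytes, 6 of endothelium and 5 of hepatocytes were under 1 CPM in every library, with CD3E, EMCN and TTR at 0 counts throughout. The sums per library ran from 20.9 to 35.8 CPM for leukocyte, 9.07 to 21.2 CPM for endothelial and 78.6 to 116 CPM for hepatocyte markers. Libraries numbered 3 deviated from their groups together in part of the genes, and values without them are given for the calls and list counts that changed most.

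Among the 7 factors, 6 were detected in all 12 libraries and 1, PRRX1, was not above the floor in any. PRRX1 (ENSG00000116132, chromosome 1, 170662728 to 170739421, plus strand) had 0 counts in all 3 TGFβ + Aramchol libraries, 1, 1 and 0 counts in the TGFβ libraries, 0 counts in all 3 Aramchol libraries, and 2, 0 and 0 counts in the vehicle libraries. Since no library passed 3 counts, no fold was computed, and a difference between groups was not detectable at this depth. Reads carried no molecular identifiers, so this floor covers counting error only.

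Coordinates are those of the deposited table, on GRCh38. SNAI1 (ENSG00000124216) lies on chromosome 20 from 49982980 to 49988886 on the plus strand, and SNAI2 (ENSG00000019549) on chromosome 8 from 48917598 to 48921740 on the minus strand. ZEB1 (ENSG00000148516) spans 31318495 to 31529814 on the plus strand of chromosome 10. ZEB2 (ENSG00000169554) spans 144364364 to 144521057 on the minus strand of chromosome 2. The TWIST genes are on different chromosomes, TWIST1 (ENSG00000122691) on the minus strand of chromosome 7 from 19020991 to 19117636 and TWIST2 (ENSG00000233608) on the plus strand of chromosome 2 from 238848032 to 238910534. The sources used here give no strand setting for the counting, and reads of a gene cannot be told from those of an antisense gene where exons overlap. ZEB1-AS1 shares 396 bases with exons of ZEB1 (4.58% of its merged exon length), ZEB2-AS1 shares 1299 bases with ZEB2 (4.97%), and unnamed opposite-strand genes share 141 bases with TWIST1 (7.06%) and 121 bases with SNAI2 (3.69%). No gene in the table overlapped SNAI1 or TWIST2.

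TGFβ against vehicle asked how the factors responded to the cytokine alone. SNAI1, SNAI2, ZEB1 and ZEB2 rose, TWIST1 fell, and TWIST2 did not pass the test. The sizes differed widely, with the SNAI genes 11.1-fold and 7.82-fold higher, the ZEB genes at most 1.28-fold higher, and TWIST1 1.63-fold lower. Thus 5 of the 6 tested factors were called, 4 higher and 1 lower, in a comparison in which 37% of 21567 tested genes were called, 18.9% higher and 18.1% lower. For 5 of the 6 factors every TGFβ library lay on 1 side of every vehicle library, which held for 46.6% of all tested genes. A call here means a Benjamini-Hochberg adjusted p under 0.05 over all tested genes, by edgeR's quasi-likelihood test.

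SNAI1 encodes Snail, a repressor of CDH1 known as an early responder to TGFβ. It measured 46.3, 48.0 and 50.7 CPM in the TGFβ libraries, against 4.65, 4.94 and 3.52 CPM in the vehicle libraries. Every TGFβ library lay far above every vehicle library. The means were 48.3 ± 2.24 CPM with TGFβ and 4.37 ± 0.749 CPM with vehicle (SD, n = 3 each), a log2 fold change of 3.47 ± 0.111 (SE) with an adjusted p of 2.74e-12 (edgeR). SNAI2, which encodes the related repressor Slug, measured 56.9, 52.8 and 49.7 CPM in the TGFβ libraries, against 7.29, 8.28 and 4.86 CPM in the vehicle libraries. These groups were also far apart, and the third vehicle library was the lowest for both SNAI genes. The means were 53.1 ± 3.63 CPM with TGFβ and 6.81 ± 1.76 CPM with vehicle (SD, n = 3 each), a log2 fold change of 2.97 ± 0.154 (SE) with an adjusted p of 5.28e-10 (edgeR). Without the libraries numbered 3, the log2 fold changes were 3.30 for SNAI1 and 2.82 for SNAI2.

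**Figure D1:**
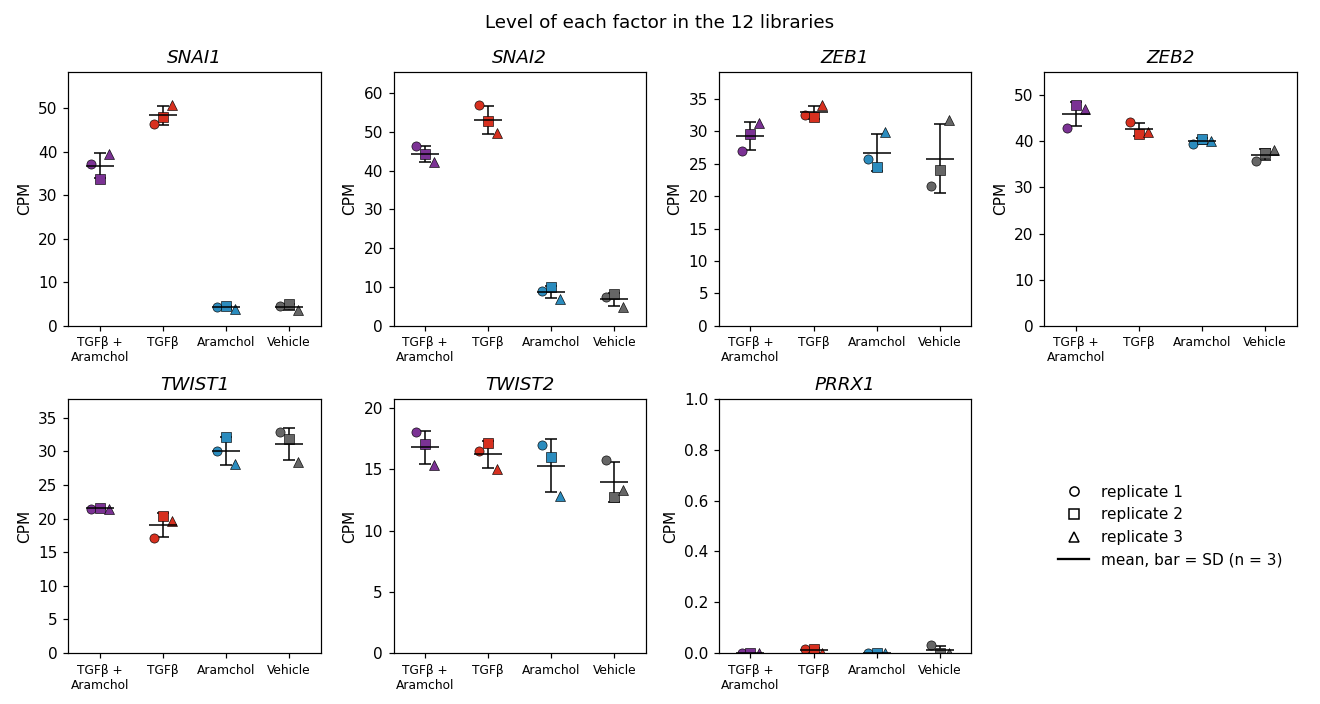
Level in CPM (y axis, linear, separate scale per gene) of each of the 7 factors in the 12 libraries, with TGFβ + Aramchol, TGFβ, Aramchol and vehicle along the x axis. Symbols mark the replicate number, and lines and bars show the mean and SD of 3 libraries. SNAI1 and SNAI2 stand at 33.8 to 56.9 CPM in the 6 libraries with TGFβ, TWIST1 is lower there, and PRRX1 stays at 0.0310 CPM or less.

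Markers of fibroblasts and myofibroblasts were higher in sum with TGFβ, but singly they moved in both directions. The 15 markers summed to 4772 to 6258 CPM in TGFβ libraries and 1143 to 1363 CPM in vehicle libraries. Of 14 tested, 7 rose, 3 fell (LRAT, PDGFRA and RGS5) and 4 did not pass. Of all tested genes, 18.9% were called higher and 18.1% lower. COL3A1, DES and LRAT, which mark fibroblasts, contractile cells and stellate cells, were under 1 CPM in every library. In bulk RNA a change in the number of cells that express a gene and a change in RNA per cell cannot be told apart. The part of these markers in the rise of the SNAI genes was not tested.

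ZEB1, a repressor of CDH1 and of epithelial polarity genes, measured 32.4, 32.2 and 34.0 CPM in the TGFβ libraries, against 21.5, 24.0 and 31.8 CPM in the vehicle libraries. The groups did not overlap, but the third vehicle library came close to the lowest TGFβ library. The means were 32.9 ± 0.992 CPM with TGFβ and 25.8 ± 5.35 CPM with vehicle (SD, n = 3 each), a log2 fold change of 0.35 with a 95% interval of 0.11 to 0.60 and an adjusted p of 0.0254 (edgeR). The call was lost when TGFβ replicate 1 or 3 was left out (adjusted p 0.0527 and 0.0733, edgeR), when vehicle replicate 1 or 2 was left out (0.117 and 0.0935), and when the fit held only the 2 groups (0.0557). Without the libraries numbered 3 the log2 fold change was 0.51.

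ZEB2, also called SIP1 for its binding to SMAD proteins, measured 44.2, 41.6 and 42.0 CPM in the TGFβ libraries, against 35.8, 37.4 and 38.0 CPM in the vehicle libraries. All 3 TGFβ libraries lay above the vehicle libraries, by a small margin. The means were 42.6 ± 1.40 CPM with TGFβ and 37.1 ± 1.16 CPM with vehicle (SD, n = 3 each), a log2 fold change of 0.20 ± 0.0561 (SE) with an adjusted p of 0.0106 (edgeR), and the call held in all 21 alternative fits.

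TWIST1, a factor of neural crest and mesoderm that is also linked to CDH1 repression, went the other way. It measured 17.0, 20.4 and 19.6 CPM in the TGFβ libraries, against 32.9, 31.9 and 28.4 CPM in the vehicle libraries. No TGFβ library reached the lowest vehicle library. The means were 19.0 ± 1.77 CPM with TGFβ and 31.0 ± 2.37 CPM with vehicle (SD, n = 3 each), so that TWIST1 fell by 0.70 ± 0.0798 (SE) on the log2 scale, with an adjusted p of 3.60e-06 (edgeR) and the call kept in all 21 alternative fits. TWIST2, its close relative, measured 16.5, 17.2 and 15.0 CPM in the TGFβ libraries, against 15.8, 12.7 and 13.3 CPM in the vehicle libraries. These groups overlapped, through the first vehicle library. The log2 difference was 0.22 with a 95% interval of -0.01 to 0.45 and an adjusted p of 0.135 (edgeR). It passed the test in 4 of 21 alternatives, namely without vehicle replicate 1 (0.32, adjusted p 0.0424), without the libraries numbered 3 (0.24, 0.0373), with a term for number 3 (0.22, 0.0374) and with the replicate number as a block (0.22, 0.0316).

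Within the TWIST and SNAI families, but not the ZEB family, the ranges of the read ratios lay apart between TGFβ and vehicle libraries. TWIST1 had 1.03 to 1.31 reads per TWIST2 read in TGFβ libraries and 2.08 to 2.51 in vehicle libraries. SNAI1 had 0.814 to 1.02 reads per SNAI2 read in TGFβ libraries and 0.596 to 0.725 in vehicle libraries. ZEB2 had 1.23 to 1.36 reads per ZEB1 read in TGFβ libraries and 1.20 to 1.67 in vehicle libraries, which overlap. These ratios are of raw counts and are not corrected for gene length, so only their change between libraries can be read.

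Per length, the factors also changed order. In CPM per kilobase of merged exons, the order in TGFβ libraries was SNAI1 (28.4 ± 1.31), SNAI2 (16.2 ± 1.11), TWIST1 (9.54 ± 0.888), TWIST2 (8.68 ± 0.594), ZEB1 (3.80 ± 0.115) and ZEB2 (1.63 ± 0.0534), as mean and SD of 3 libraries. In vehicle libraries it was TWIST1 (15.5 ± 1.19), TWIST2 (7.46 ± 0.874), ZEB1 (2.98 ± 0.619), SNAI1 (2.56 ± 0.439), SNAI2 (2.08 ± 0.537) and ZEB2 (1.42 ± 0.0442) CPM per kilobase. PRRX1 was last in every group. The ranges of TWIST1 and TWIST2 overlapped in TGFβ libraries, and those of ZEB1 with SNAI1 and of SNAI1 with SNAI2 overlapped in vehicle libraries, so those neighbours have no firm order. The TGFβ + Aramchol libraries had the order of the TGFβ libraries with no overlapping neighbours. The Aramchol libraries had TWIST1 and TWIST2 first and ZEB2 and PRRX1 last, with ZEB1, SNAI2 and SNAI1 overlapping in between. The merged exons of ZEB2 span 26151 bases, and its longest coding transcript in GENCODE 29 spans 9583 bases. With transcript lengths, an alternative chosen after seeing the data, ZEB2 stood at 4.44 ± 0.146 CPM per kilobase with TGFβ and 3.87 ± 0.121 with vehicle. ZEB1 stood at 5.25 and 4.11 on the same scale. The order changed with this length. ZEB2 stood above SNAI2 (2.81) and SNAI1 (2.59) in vehicle libraries, and above both SNAI genes in Aramchol libraries. With overlapping ranges, SNAI2 stood above SNAI1 with vehicle, TWIST2 above TWIST1 with TGFβ, and ZEB2 above ZEB1 with both agents.

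**Figure D2:**
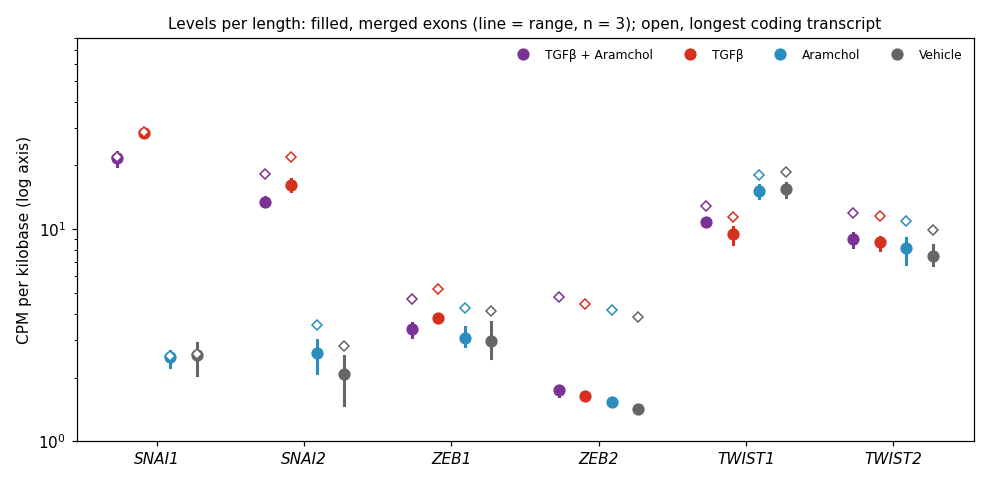
Level per length of the 6 detected factors, in CPM per kilobase on a log axis, for TGFβ + Aramchol, TGFβ, Aramchol and vehicle from left to right in each gene. Filled circles are means over merged exons with the range of 3 libraries as a line, and open diamonds are means over the longest coding transcript. SNAI1 stands at 28.4 CPM per kilobase with TGFβ and 2.56 with vehicle, while ZEB2 changes place with the length used.

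TGFβ + Aramchol against TGFβ asked whether Aramchol changed the factors' levels in the presence of the cytokine. SNAI1 fell, and none of the other 5 tested factors passed the test. In this comparison 2.25% of tested genes were called (0.89% higher and 1.36% lower), and the groups did not overlap for 4 of the 6 factors, against 23.6% of all tested genes. SNAI1 measured 37.3, 33.8 and 39.4 CPM in the TGFβ + Aramchol libraries, against 46.3, 48.0 and 50.7 CPM in the TGFβ libraries. The highest library with both agents stayed under the lowest library with TGFβ alone. The means were 36.8 ± 2.83 CPM with both and 48.3 ± 2.24 CPM with TGFβ (SD, n = 3 each), so that SNAI1 fell by 0.39 ± 0.0958 (SE) on the log2 scale, with a 95% interval of -0.60 to -0.19 and an adjusted p of 0.0453 (edgeR).

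The call for SNAI1 was close to the threshold. Leaving out TGFβ + Aramchol replicate 1 or 2 gave adjusted p-values of 0.157 and 0.166, and leaving out TGFβ replicate 1, 2 or 3 gave 0.102, 0.134 and 0.190 (edgeR). Leaving out Aramchol replicate 1 or 2, which enter only through the shared estimate of the spread, gave 0.0675 and 0.0632. The call was lost in these 7 of 21 alternatives and kept in the other 14. In the libraries numbered 1 and 2 alone, the log2 fold change was -0.41 with an adjusted p of 0.000213 (edgeR). The log2 fold change itself lay between -0.44 and -0.35 in all 21 alternatives. The 15 fibroblast and myofibroblast markers summed to 3466 to 4773 CPM in TGFβ + Aramchol libraries and 4772 to 6258 CPM in TGFβ libraries. Of 14 tested, 2 were called lower (PDGFRB and TAGLN) and 12 did not pass, where 1.36% of all tested genes were called lower. In the libraries numbered 1 and 2 alone 5 were called lower, where 1090 of all tested genes were. With a term for number 3 it was also 5, where 956 of all tested genes were. The part of these markers in the lower SNAI1 level was not tested.

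SNAI2 measured 46.4, 44.3 and 42.3 CPM in the TGFβ + Aramchol libraries, against 56.9, 52.8 and 49.7 CPM in the TGFβ libraries. The groups did not overlap. The log2 difference was -0.26 with a 95% interval of -0.55 to 0.03 and an adjusted p of 0.357 (edgeR). It passed in 3 alternatives, with adjusted p-values of 0.0243 with no filter on low counts, 0.0102 in the libraries numbered 1 and 2 alone and 0.0305 with only the 2 groups in the fit (edgeR). TWIST1, which was lower with TGFβ, measured 21.5, 21.5 and 21.5 CPM in the TGFβ + Aramchol libraries, against 17.0, 20.4 and 19.6 CPM in the TGFβ libraries. The libraries with both agents were nearly equal and lay above all 3 TGFβ libraries. The log2 difference was 0.18 with a 95% interval of 0.0047 to 0.35, an unadjusted p of 0.0447 and an adjusted p of 0.275 (edgeR). An unadjusted p under 0.05 was found for 2 of the 6 tested factors in this comparison, SNAI1 and TWIST1.

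For the ZEB genes and TWIST2 the differences were small in either direction. ZEB1 measured 27.0, 29.6 and 31.3 CPM in the TGFβ + Aramchol libraries, just under the TGFβ range, with a log2 difference of -0.17 (95% interval -0.41 to 0.08). ZEB2 measured 42.9, 47.9 and 46.9 CPM in the TGFβ + Aramchol libraries, overlapping the TGFβ range, with a log2 difference of 0.11 (95% interval -0.01 to 0.23). TWIST2 measured 18.04, 17.1 and 15.3 CPM in the TGFβ + Aramchol libraries, also overlapping the TGFβ range, with a log2 difference of 0.05 (95% interval -0.18 to 0.28). These intervals are wide relative to the differences and do not show that the levels were equal.

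As a share of the level with TGFβ alone, the mean with both agents was 76.2% for SNAI1, 83.5% for SNAI2, 88.9% for ZEB1, 108% for ZEB2, 113% for TWIST1 and 104% for TWIST2. For comparison, FN1, which encodes fibronectin, was at 55.4%, with 4110 ± 434 CPM with both agents and 7418 ± 798 CPM with TGFβ (SD, n = 3 each), a log2 fold change of -0.85 with an adjusted p of 0.00025 (edgeR). CDH1, which encodes E-cadherin and is the best known target repressed by these factors, was at 10.3 ± 0.992 CPM with both agents and 11.1 ± 0.834 CPM with TGFβ, a log2 difference of -0.11 (95% interval -0.32 to 0.11). CDH2, which encodes N-cadherin, and VIM, which encodes vimentin, also did not pass, with log2 differences of 0.02 (95% interval -0.10 to 0.14) and -0.09 (95% interval -0.22 to 0.03).

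Aramchol against vehicle asked what Aramchol did to the factors without the cytokine. None of the 6 tested factors passed edgeR's test, in a comparison in which 0.357% of tested genes did, and 1 of the 6, SNAI2, had an unadjusted p under 0.05. The groups did not overlap for 1 factor, ZEB2, against 16% of all tested genes. SNAI2 measured 9.004, 9.91 and 6.89 CPM in the Aramchol libraries, against 7.29, 8.28 and 4.86 CPM in the vehicle libraries. The third library was the lowest of both groups, and the groups overlapped. The log2 difference was 0.34 with a 95% interval of 0.01 to 0.67 and an adjusted p of 0.410 (edgeR). It passed with no filter on low counts (adjusted p 0.0155, edgeR) and in the libraries numbered 1 and 2 alone (0.29, adjusted p 0.0444).

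SNAI1 measured 4.35, 4.57 and 3.81 CPM in the Aramchol libraries, within the range of the vehicle libraries, with a log2 difference of -0.04 (95% interval -0.29 to 0.21). ZEB2 measured 39.4, 40.6 and 40.1 CPM in the Aramchol libraries, all above the vehicle libraries, with a log2 difference of 0.11 (95% interval -0.01 to 0.23) and an adjusted p of 0.469 (edgeR). The remaining log2 differences were 0.05 for ZEB1, -0.04 for TWIST1 and 0.13 for TWIST2, each with a 95% interval that held 0. DESeq2 called none of the 6 factors either. Of the marker genes of the transition, CDH1 averaged 60.4 ± 3.81 CPM with Aramchol and 72.9 ± 9.67 CPM with vehicle (SD, n = 3 each), a log2 difference of -0.27 (95% interval -0.47 to -0.08) with an unadjusted p of 0.00981 and an adjusted p of 0.262 (edgeR). It passed with no filter on low counts (adjusted p 0.0257, edgeR), in the libraries numbered 1 and 2 alone (-0.43, adjusted p 8.12e-05) and without vehicle replicate 3 (-0.38, adjusted p 0.0138). CDH2, FN1 and VIM did not pass, with log2 differences of 0.11, 0.00 and 0.00.

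TGFβ + Aramchol against Aramchol gave the response to TGFβ in cells that also received Aramchol. SNAI1, SNAI2 and ZEB2 rose and TWIST1 fell, so that 4 of the 6 tested factors were called where 30.2% of tested genes were. The groups did not overlap for these 4 factors, against 44.6% of all tested genes. SNAI1 averaged 36.8 ± 2.83 CPM with both agents and 4.24 ± 0.391 CPM with Aramchol (SD, n = 3 each), a log2 fold change of 3.12 ± 0.110 (SE) with an adjusted p of 1.20e-11 (edgeR). SNAI2 averaged 44.3 ± 2.03 CPM with both agents and 8.60 ± 1.55 CPM with Aramchol, a log2 fold change of 2.36 ± 0.150 with an adjusted p of 7.12e-09 (edgeR).

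TWIST1 averaged 21.5 ± 0.0312 CPM with both agents and 30.1 ± 2.07 CPM with Aramchol (SD, n = 3 each), and fell by 0.49 on the log2 scale with an adjusted p of 0.000198 (edgeR). ZEB2 averaged 45.9 ± 2.64 CPM with both agents and 40.0 ± 0.616 CPM with Aramchol, a log2 fold change of 0.20 with an adjusted p of 0.0132 (edgeR). The ZEB2 call was lost without TGFβ + Aramchol replicate 2 (adjusted p 0.0731), without TGFβ + Aramchol replicate 3 (0.0542) and without Aramchol replicate 1 (0.0527). ZEB1 (0.13, 95% interval -0.11 to 0.38) and TWIST2 (0.14, 95% interval -0.10 to 0.37) did not pass. CDH1 fell by 2.56 on the log2 scale in this comparison, and CDH2, FN1 and VIM rose by 1.10, 2.64 and 1.11, with adjusted p-values of 3.33e-11, 7.90e-10, 5.74e-12 and 1.12e-09 (edgeR). This comparison and the one of TGFβ against vehicle share no library, while each shares libraries with the other comparisons.

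The interaction tests whether the log2 response to TGFβ differed between cells with and without Aramchol. None of the 6 tested factors passed edgeR's test, where 0.0139% of tested genes, or 3 in all, did. An unadjusted p under 0.05 was found for 2 of the 6, SNAI2 and SNAI1. The SNAI2 response was 2.36 with Aramchol and 2.97 without it, an interaction of -0.60 with a 95% interval of -1.05 to -0.16, an unadjusted p of 0.0111 and an adjusted p of 0.898 (edgeR). It passed with no filter on low counts (adjusted p 0.000242, edgeR) and in the libraries numbered 1 and 2 alone (-0.56, adjusted p 0.00694). The SNAI1 response was 3.12 with Aramchol and 3.47 without it, an interaction of -0.35 with a 95% interval of -0.67 to -0.03 and an adjusted p of 0.943 (edgeR). For TWIST1 the interaction was 0.22 (95% interval -0.02 to 0.46), for ZEB1 -0.22 (-0.57 to 0.13), for ZEB2 0.00 (-0.17 to 0.17) and for TWIST2 -0.08 (-0.41 to 0.25).

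**Figure D3:**
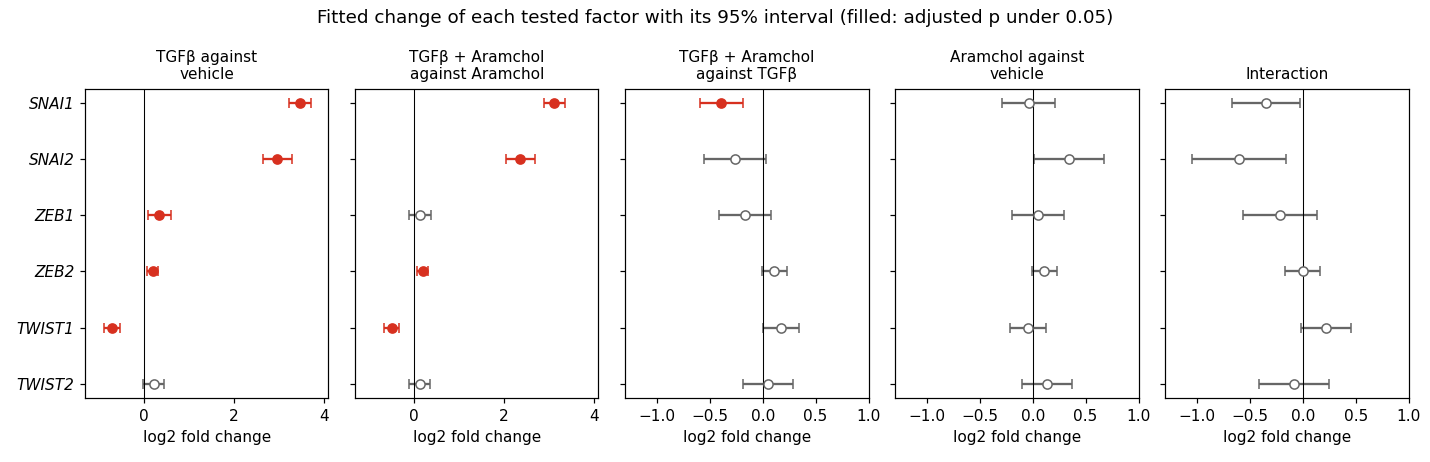
Fitted log2 fold change (x axis) with its 95% interval for the 6 tested factors (y axis) in the 4 comparisons and the interaction. Filled red circles passed an adjusted p of 0.05 and open circles did not, and the scales of the first 2 panels are wider than those of the last 3. SNAI1 lies at 3.47 for TGFβ against vehicle and at -0.39 for TGFβ + Aramchol against TGFβ.

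MicroRNAs of the miR-200 family and miR-205 are known to repress ZEB1 and ZEB2 through their 3′ untranslated regions, and the ZEB proteins are known to repress the miR-200 genes in turn. The mature sequences from RefSeq (GRCh38.p14) are shown because they fall into groups that share a seed, the stretch of bases 2 to 8 that pairs with the target, in capitals.
hsa-miR-200b-3p: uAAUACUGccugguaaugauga
hsa-miR-200c-3p: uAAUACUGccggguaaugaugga
hsa-miR-429: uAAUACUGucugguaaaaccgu
hsa-miR-200a-3p: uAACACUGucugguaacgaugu
hsa-miR-141-3p: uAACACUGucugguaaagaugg
hsa-miR-205-5p: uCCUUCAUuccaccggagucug

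The letters CAGTATT pair with the seed of the first group (miR-200b, miR-200c and miR-429), CAGTGTT with that of miR-200a and miR-141, and ATGAAGG with that of miR-205. They were searched on the transcript strand only, in the 3′ untranslated region of 1 GENCODE 29 coding transcript per gene, a search chosen after seeing the data. CAGTATT occurred 6 times in ZEB1, 5 times in ZEB2 and 1 time in SNAI2, and CAGTGTT occurred 3 times in ZEB1 and 4 times in ZEB2. ATGAAGG occurred 1 time in ZEB1 and was absent from ZEB2 and SNAI2. SNAI1, TWIST1, TWIST2 and PRRX1 held no match to any of the motifs. Of 18983 genes, 16.1% held CAGTATT, 18.2% held CAGTGTT and 11.5% held ATGAAGG at least once. The region is 2549 bases long in ZEB1 and 5370 bases in ZEB2, against a median of 1051 bases, so these counts are not comparable between genes without regard to length. The motifs differ from one another, so no single match counted for more than 1 of them. Examples from ZEB1 and ZEB2, with the match in capitals, are given on the gene's own strand in GRCh38.
ZEB1, chr10:31527625-31527647: tatcttatCAGTATTatcactct
ZEB1, chr10:31528789-31528811: tgatttaaCAGTGTTatgttaac
ZEB2, chr2:144388982-144389004: caatgcatCAGTATTatgattcc
ZEB2, chr2:144389229-144389251: attttgtaCAGTGTTaaggccta

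The genes of these microRNAs gave almost no reads. MIR200C, MIR141, MIR205, MIR34A and MIR200CHG, the host transcript of miR-200c and miR-141, had 0 counts in every library, MIR205HG at most 1, MIR200A at most 3, MIR200B at most 4 and MIR429 at most 6 counts. Libraries of this kind do not measure mature microRNAs, so these counts say nothing firm about their levels. ZEB1 and ZEB2 were detected throughout, at 21.5 to 34.0 CPM and 35.8 to 47.9 CPM. ZEB1-AS1, transcribed opposite ZEB1, fell by 0.45 on the log2 scale with TGFβ against vehicle (4.62 ± 0.487 CPM with TGFβ and 6.33 ± 0.524 CPM with vehicle, adjusted p 0.00852, edgeR). Of 13 such host and antisense genes found in the table, 3 had enough counts for the test, and with TGFβ against vehicle 1 rose and 1 fell. The one that rose, SNAI3-AS1, had a log2 fold change of 0.51 with an adjusted p of 0.0285 (edgeR) and lost its call in 6 of 21 alternatives, namely the libraries numbered 1 and 2 alone, the compared groups alone, and 4 fits that each left out 1 library (replicate 1 or 3 of TGFβ, or of vehicle; 0.33 to 0.73 over all alternatives, adjusted p up to 0.154).

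The genes around the factors were described by lists, whose counts stand beside 37% of all tested genes called with TGFβ against vehicle, 18.9% higher and 18.1% lower. Of 10 relatives in the same families, 7 were tested, and with TGFβ against vehicle 3 rose and 2 fell (2 and 2 without the libraries numbered 3). PRRX2, the homeodomain relative of the undetected PRRX1, measured 21.999, 24.1 and 28.7 CPM in the TGFβ libraries, against 5.01, 4.03 and 4.04 CPM in the vehicle libraries. These groups were far apart, with a log2 fold change of 2.51 and an adjusted p of 4.00e-09 (edgeR). ZFHX3, a large homeodomain and zinc finger factor, rose to 75.6 ± 1.83 CPM with TGFβ, against 48.2 ± 1.08 CPM with vehicle. The basic helix-loop-helix genes MESP1 and TCF21, both known from mesoderm development, fell by 1.06 and 1.73 on the log2 scale. SNAI3, the third SNAI gene, was at 1.22 ± 0.147 CPM with TGFβ and 0.779 ± 0.201 CPM with vehicle.

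Of 22 other transcription factors tied to the transition, 18 were tested, and 13 rose and 3 fell with TGFβ against vehicle, with a median log2 fold change of 0.61 against -0.03 over all tested genes. BHLHE40, a basic helix-loop-helix repressor, was at 384 ± 6.91 CPM with TGFβ and 59.4 ± 2.74 CPM with vehicle, 6.47-fold higher. HMGA2, an architectural chromatin protein known to raise SNAI1 and TWIST1, was at 121 ± 11.8 CPM with TGFβ and 41.7 ± 5.77 CPM with vehicle. NR2F1, a nuclear receptor, and SOX9, a factor of biliary development, fell by 0.91 and 0.84 on the log2 scale.

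Epithelial genes known as repressed targets of SNAI and ZEB factors were called in both directions, more of them lower. Of 27 tested with TGFβ against vehicle, 12 fell, 5 rose and 10 did not pass, with a median log2 fold change of -0.46. CDH1 was at 11.1 ± 0.834 CPM with TGFβ and 72.9 ± 9.67 CPM with vehicle, 6.59-fold lower, and TJP3, a tight junction scaffold, fell by 3.02 on the log2 scale. CLDN4, a tight junction claudin, and CDS1, an enzyme of phospholipid synthesis, rose by 1.87 and 1.85 on the log2 scale. Of 24 mesenchymal genes, 20 rose and 1, S100A4, which encodes a calcium-binding protein, fell, with a median log2 fold change of 1.31. FN1 was 11.3-fold and TNC, which encodes the matrix protein tenascin C, 24.0-fold higher with TGFβ, while CDH2 and VIM were 2.27-fold and 2.31-fold higher (adjusted p between 4.07e-13 and 3.42e-10 for FN1, CDH2 and VIM, edgeR).

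Of 22 corepressors and chromatin partners tested, 4 rose and 9 fell with TGFβ against vehicle, with a median log2 fold change of -0.034, against -0.029 over all tested genes. LOXL2, a lysyl oxidase known to bind Snail, rose by 1.12 and KDM1A, the histone demethylase LSD1, by 0.46 on the log2 scale, while KAT2B, a histone acetyltransferase, fell by 1.24 and LIMD1, a LIM domain scaffold, by 0.95. Of 24 kinases, ubiquitin ligases and deubiquitinases that act on the proteins, 5 rose and 2 fell, a smaller share than the 37% over all tested genes. MDM2, a ubiquitin ligase, was at 162 ± 10.5 CPM with TGFβ and 79.3 ± 5.76 CPM with vehicle, and FBXL14, whose product targets Snail for degradation, was at 4.003 ± 0.922 CPM with TGFβ and 10.2 ± 0.482 CPM with vehicle.

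Basic helix-loop-helix partners and inhibitors of the TWIST proteins rose in 5 of 6 tested genes and fell in none with TGFβ against vehicle. ID3, an inhibitor that sequesters the partners, was at 49.8 ± 5.15 CPM with TGFβ and 19.5 ± 4.49 CPM with vehicle, and TCF4, a dimer partner, at 3.27 ± 0.836 CPM with TGFβ and 1.14 ± 0.124 CPM with vehicle. Of 20 TGFβ pathway genes that act upstream of the factors, 13 rose and 5 fell, with a median log2 fold change of 0.72. SMAD7, an inhibitory SMAD induced by TGFβ signalling, was 10.1-fold and JAG1, a Notch ligand, 2.86-fold higher with TGFβ. The receptor genes TGFBR3 and TGFBR2 fell by 1.77 and 0.82 on the log2 scale.

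With TGFβ + Aramchol against TGFβ, few genes of these lists passed the test, where 0.89% of all tested genes were called higher and 1.36% lower. None of the 7 relatives, 18 other factors and 6 TWIST partners and inhibitors did, and 4 of 24 mesenchymal genes fell while none rose. These counts changed when the libraries numbered 3 were left out or given a term of their own, and why was not tested. Calls over all tested genes, 486 in the reported fit, also changed with every library kept, to 1278 with no filter and 1042 with DESeq2. In the libraries numbered 1 and 2 alone, RUNX2 among the other factors and ID3 and TCF4 among the partners and inhibitors fell, and with a term for number 3, HMGA2, ID2 and ID3 fell and TCF12 rose. In place of 4, the count of mesenchymal genes that fell was 16 in the libraries numbered 1 and 2 alone and 15 with a term for number 3. Calls over all tested genes rose as well. In these 2 settings 1090 and 956 genes were called lower, against 294 in the reported fit. Called higher were 763 and 727, against 192. Beside FN1, the 4 were CDH11, which encodes a cadherin, SPARC, a matrix protein gene, and TAGLN, an actin-binding protein gene. CDH11 was at 4.76 ± 0.280 CPM with both agents and 8.04 ± 0.792 CPM with TGFβ, and lost its call without TGFβ + Aramchol replicate 1 or 2 or TGFβ replicate 1, 2 or 3 (adjusted p up to 0.0944, edgeR). Of 27 epithelial genes 1 rose, LLGL2, a cell polarity gene known to be repressed by SNAI1, at 12.6 ± 0.453 CPM with both agents and 9.64 ± 0.940 CPM with TGFβ. The claudin genes CLDN4 and CLDN7 fell by 0.58 and 0.44 on the log2 scale. In the libraries numbered 1 and 2 alone, 4 epithelial genes rose (CLDN1, DSP, LLGL2 and PKP2) and 3 fell, and with a term for number 3, 5 rose and 2 fell.

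LLGL2 lost its call without TGFβ + Aramchol replicate 1 or 2 or TGFβ replicate 1 or 3, and CLDN7 without TGFβ + Aramchol replicate 1 or 2 or TGFβ replicate 3 (adjusted p up to 0.116 and 0.0831, edgeR). Among the regulators, LOXL3, a lysyl oxidase related to LOXL2, was at 10.9 ± 0.193 CPM with both agents and 18.3 ± 1.04 CPM with TGFβ, and MDM2 at 120 ± 9.27 CPM with both agents and 162 ± 10.5 CPM with TGFβ. LOXL3 lost its call without TGFβ + Aramchol replicate 1 or TGFβ replicate 2, and MDM2 without TGFβ + Aramchol replicate 1 or TGFβ replicate 3, each with an adjusted p of up to 0.0644 (edgeR). These were the only genes called among 22 corepressors and 24 kinases, ligases and deubiquitinases. In the libraries numbered 1 and 2 alone, 2 corepressors rose and 3 fell, and 6 of the 24 rose and 2 fell. With a term for number 3, 5 corepressors rose and 2 fell, and 5 of the 24 rose and 1 fell. Over all tested genes, the first setting called 763 higher and 1090 lower, and the second 727 higher and 956 lower. Of the 20 upstream genes, 3 fell (6 fell and 2 rose in the libraries numbered 1 and 2 alone, and 4 fell with a term for number 3), among them the Notch receptor gene NOTCH3 by 0.71 and SMURF2, a ubiquitin ligase of the TGFβ receptor, by 0.28 on the log2 scale. NOTCH3 lost its call without TGFβ + Aramchol replicate 1 or 2 or TGFβ replicate 2 or 3, and SMURF2 without TGFβ + Aramchol replicate 1 or 2 or TGFβ replicate 1 or 2 (adjusted p up to 0.154 and 0.0753, edgeR).

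With Aramchol against vehicle, where 0.357% of all tested genes were called, 3 genes of the lists passed. BHLHE40 and JAG1 were each 1.22-fold higher, with adjusted p-values of 0.0246 and 0.0123, and ID3 was at 10.4 ± 1.48 CPM with Aramchol and 19.5 ± 4.49 CPM with vehicle, 1.88-fold lower, with an adjusted p of 0.0231 (edgeR). All 3 calls were lost with only the compared groups in the fit and without Aramchol replicate 1 or 2 or vehicle replicate 1 or 2, and those of BHLHE40 and ID3 also without Aramchol replicate 3, with adjusted p-values of up to 0.181, 0.171 and 0.171 for BHLHE40, JAG1 and ID3 (edgeR). BHLHE40 lost its call without TGFβ replicate 2 as well. More genes passed in the libraries numbered 1 and 2 alone, where 1544 were called in all. There, 1 epithelial gene rose and 4 fell, 2 mesenchymal genes rose and 5 fell, 3 corepressors rose and 1 fell, 2 kinases, ligases or deubiquitinases rose, 2 upstream genes rose and 1 fell, 2 other factors rose, 2 TWIST partners and inhibitors fell, and 1 relative and 1 antisense or host gene fell. Of the fibroblast and myofibroblast markers, 3 fell there and none rose.

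**Figure D4:**
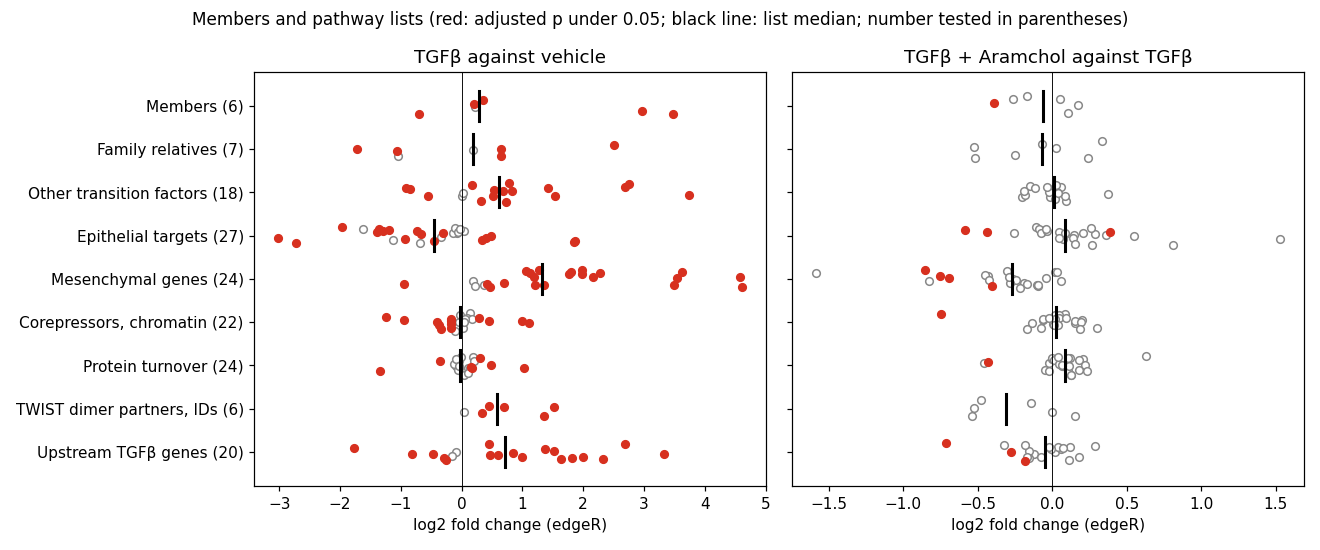
Log2 fold change (x axis) of the 6 tested factors and of the genes of 8 lists (y axis, number tested in parentheses), for TGFβ against vehicle on the left and TGFβ + Aramchol against TGFβ on the right, on different scales. Red points passed an adjusted p of 0.05, open points did not, and a black line marks the median. The mesenchymal genes have a median of 1.31 on the left and -0.27 on the right.

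The profile most like that of each factor was sought among 14551 protein coding genes, as the smallest root mean square difference of centred log2 CPM over the 12 libraries, a description without a test. For SNAI1 these were P4HA3, a collagen prolyl hydroxylase subunit (0.13), TGFBI, a secreted matrix protein (0.15), and SERPINE2, a protease inhibitor (0.16). For SNAI2 they were the adhesion receptor gene ADGRF4 (0.16), AMIGO2 (0.16) and PLAU, which encodes urokinase (0.17). SNAI1 and SNAI2 differed from each other by 0.36. The named genes are the nearest by selection, so any gene not named differs by at least as much. P4HA3 averaged 13.4 ± 0.819 CPM with both agents, 18.6 ± 1.18 CPM with TGFβ, 1.68 ± 0.145 CPM with Aramchol and 1.69 ± 0.233 CPM with vehicle.

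For TWIST1 the nearest profiles were those of TPRN (0.071), the tetraspanin gene CD9 (0.075) and TFAP2C, a transcription factor gene (0.078). CD9 averaged 88.1 ± 8.86 CPM with both agents, 80.01 ± 3.62 CPM with TGFβ, 126 ± 5.73 CPM with Aramchol and 127 ± 7.41 CPM with vehicle. For ZEB1 they were the phosphatase gene PPP1CB (0.078), ZNF354B (0.080) and SGTB (0.080), for ZEB2 CCDC50 (0.036), MACO1 (0.038) and ZNF592 (0.039), and for TWIST2 the glycosylation enzyme gene ALG1 (0.074), HEATR3 (0.076) and MAP2K3, which encodes a kinase (0.080). Genes that vary little all have small differences of this kind, so the values for the ZEB genes and TWIST2 cannot be set against those for the SNAI genes.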

How the data were processed

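RNA sequencing libraries of H69 cells were deposited by the authors as 1 table of raw counts per gene, not normalised. Per the labels' protocols, RNA was taken up in Trizol and libraries were made with an IDT kit. The submitters' processing notes name STAR 2.7.9a, featureCounts of Subread, DESeq2 and the GRCh38/hg38 build. Neither the annotation release nor the strand setting is given in the sources used here. Libraries held 52279922 to 70339925 counts.

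Each of the 12 libraries was assigned to 1 of 4 groups of 3 from its label. Genes were kept by filterByExpr of edgeR 4.0.16 (R 4.3.3), leaving 21567, scaled by TMM and fitted in 1 quasi-likelihood model with 4 group means, whose biological coefficient of variation was 8.90%. The 4 comparisons and the interaction were tested with glmQLFTest and Benjamini-Hochberg adjustment over all tested genes, with a threshold of 0.05. The functions were tested on simulated counts. PRRX1 did not pass the filter.

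The alternatives were no filter, a stricter filter, other scalings, DESeq2 1.42.0, a replicate block, a term for number 3, the libraries numbered 1 and 2 alone, the compared groups alone, and leaving out each library. The transcript length, the seed search and the list counts under these settings were chosen after seeing the data. Beside the 7 members, CDH1, CDH2, FN1 and VIM were named, and per list and comparison the 2 called genes with the smallest p in each direction and a mean of at least 1 CPM in the higher group. SNAI3, SPARC, TAGLN and the genes given for the libraries numbered 1 and 2 or a term for number 3 were named after their values were seen. The 3 nearest profiles of each tested member were also named. The members and the 14 gene lists were chosen with earlier results of these data known. Figures were drawn with matplotlib 3.10.9 from tables made with pandas 2.3.3 in Python 3.11.15.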

Additional observations from a re-analysis of the deposited data

Results flagged for a closer look

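For 2 genes named beside the factors, the response to TGFβ differed between cells with and without Aramchol by the test of that difference itself. FN1 had an interaction of -0.85 on the log2 scale with an adjusted p of 0.0205 (edgeR's quasi-likelihood test), from a response of 2.64 with Aramchol and 3.49 without it. The FN1 value lay between -0.93 and -0.76 in 20 alternatives, and the call was kept in 12 and lost in 8. It was lost without TGFβ + Aramchol replicate 1 or 2, TGFβ replicate 2 or 3, Aramchol replicate 1 or 2, or vehicle replicate 1 or 2, with an adjusted p of up to 0.144 (edgeR). In the libraries numbered 1 and 2 alone the value was -0.78 with an adjusted p of 1.34e-07 (edgeR).

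JAG1, the Notch ligand gene, had an interaction of -0.47 with an adjusted p of 0.0205 (edgeR). It averaged 164 ± 3.17 CPM with both agents, 186 ± 1.39 CPM with TGFβ, 79.3 ± 2.55 CPM with Aramchol and 64.9 ± 0.723 CPM with vehicle (SD, n = 3 each). The value lay between -0.49 and -0.45 in 20 alternatives, and the call was lost in the 10 that left out TGFβ + Aramchol replicate 1, 2 or 3, TGFβ replicate 1, 2 or 3, Aramchol replicate 1 or 2, or vehicle replicate 1 or 2, with an adjusted p of up to 0.145 (edgeR).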

How the results depend on the processing

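The log2 fold changes of the 6 tested factors, CDH1, CDH2, FN1 and VIM gave 1040 values over the alternatives. Of these, 1003 kept their side of the threshold, 23 lost a call, 14 gained one and none reversed a call. Values that passed in neither fit count among the 1003 even where their sign changed. An example is SNAI1 for Aramchol against vehicle, at -0.18 to 0.06 over the alternatives. Counts of called genes for TGFβ against vehicle and for TGFβ + Aramchol against Aramchol stayed within 1.5 times of those reported. Where other counts moved further, the cause was not tested.

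For Aramchol against vehicle, 77 genes were called, against 531 with no filter, 399 with DESeq2, 538 with a term for number 3, 1544 in the libraries numbered 1 and 2, 5 with only the compared groups, and 16 (without Aramchol replicate 2) to 611 (without vehicle replicate 3) with 1 library left out. For TGFβ + Aramchol against TGFβ, 486 were called, against 1278, 1042, 1683, 1853 and 960 in the same settings, and 55 (without TGFβ + Aramchol replicate 1) to 1209 (without vehicle replicate 3) with 1 library left out. For the interaction, 3 were called, against 151 with no filter, 26 with DESeq2, 31 with a term for number 3, 191 in the libraries numbered 1 and 2, and 0 to 7 with 1 library left out.

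Of the factors, 0 were called for Aramchol against vehicle and 0 for the interaction, against 1 with no filter and 1 in the libraries numbered 1 and 2. For TGFβ + Aramchol against TGFβ 1 was called, against 2 in these settings and with only the compared groups, and 0 to 1 with 1 library left out.

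Libraries of different groups share replicate numbers. All 6 pairs of libraries numbered 3 had deviations correlated above 0.1 (0.111 to 0.221), against 1 of the 12 pairs numbered 1 or 2 (at most 0.107), and 24 of 36 library checks matched best with their own number. The 18 pairs with the same number all had positive correlations, from 0.00739 to 0.221. The reported fit held no term for the number, which leaves such shared deviations in its spread. A replicate block and a term for number 3 were run as alternatives. With the replicate block, 464 genes were called for Aramchol against vehicle, 1519 for TGFβ + Aramchol against TGFβ and 23 for the interaction, and among the factors only the TWIST2 call for TGFβ against vehicle changed. PRRX1 stayed under the floor of 3 counts, so no difference in it could be measured.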
